A study of Mus musculus with 18 samples.

Results

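The 38 genes described here mark T cells and natural killer (NK) cells. They were chosen by symbol from the 58126 rows of a gene expression table of mouse liver. They were Cd3d, Cd3e, Cd3g, Cd247, Trac, Trbc1 and Trbc2 of the T cell receptor complex, Cd4, Cd8a, Cd8b1, Cd2, Cd5, Cd6 and Cd28 of coreceptors and costimulation, and Lck, Zap70, Lat and Skap1 of receptor signalling. The other members were the effector genes Nkg7, Gzma, Gzmb, Gzmk, Prf1, Ifng, Ccl5 and Xcl1, the NK receptors Klrb1c, Klrd1, Klrk1 and Ncr1, and the regulators and receptors Eomes, Tbx21, Foxp3, Pdcd1, Ctla4, Il7r, Il2rb and Cxcr6. All 38 had a row in the table, and 21 of them reached 1 TPM (a level corrected for gene length and scaled to the same total in every library) in at least 3 of the 18 libraries, the level set for testing.

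The libraries came from livers of C57BL/6 mice that were wild type (WT) or carried a liver-specific knockout (LKO) of Ftcd, an enzyme of histidine and folate metabolism. Untreated WT (3 libraries) and untreated LKO (3 libraries) livers were taken at 12 months of age. The other mice had received the liver carcinogen diethylnitrosamine (DEN, 20 mg/kg into the peritoneum) on postnatal day 14 and were sampled 12 months later, as WT liver (6 libraries), LKO nontumour liver (3 libraries) and LKO tumour (3 libraries). All mice were kept on regular chow. The promoter that drives the liver deletion is not given in the sources used here, there was no tumour group labelled WT, and nothing states that replicates were separate animals, so the tests measure the spread between libraries.

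T cells recognise antigen through a receptor whose α and β chains end in the constant regions encoded by Trac and by Trbc1 or Trbc2. The CD3 chains and the zeta chain (Cd247) carry the signal into the cell, where the kinase Lck phosphorylates them and Zap70 is recruited. NK cells and cytotoxic T cells share the granule proteins encoded by Nkg7, Prf1 and the granzyme genes. Both cell types are part of normal liver, where NK and NKT cells are known to be abundant among lymphocytes and where T cells gather around injury and tumours.

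Some properties of the libraries touch every comparison. Ftcd was at 0.1 to 3.16 TPM in all 9 LKO libraries, and at 61.17 to 106.1 TPM in 6 libraries labelled WT. It was at only 1.77, 2.36 and 2.5 TPM in untreated WT replicate 3 and DEN WT replicates 1 and 2, so WT is used below as the label of those libraries. Y-linked transcripts were present in all 3 untreated LKO libraries and in replicates 2 and 3 of both DEN LKO groups. They were under 1 TPM in summed level in every library labelled WT. Sex and genotype cannot be told apart in untreated liver. After DEN they are also aligned, except in replicate 1 of both DEN LKO groups. Mitochondrially encoded transcripts took 4.24% to 38.8% of the TPM. The hepatocyte markers were high in every library, with a summed level of at least 37620 TPM. In bulk tissue, fewer cells of a type and less RNA per cell cannot be told apart.

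Promoter sequences are shown for a receptor gene (Cd3e), for a pair of effector genes (Nkg7 and Gzmb) and for Zap70, whose levels differed in order from those of Cd3e. Of the 38 members, 26 had a promoter window in RefSeq (build GRCm38.p6), with 31 windows among them. The 250 bases before each start were searched on both strands for TGTGGT, the RUNX motif, and for AGGAAG, the ETS motif, named for transcription factor families with known roles in lymphocytes. On the other strand these read as ACCACA for RUNX and, for the ETS motif, as CTTCCT. A RUNX and an ETS match can share at most an end base. Matches are in capitals, and each window is written 5′ to 3′ on the gene's strand.
Cd3e, before the start at base 45009611 of chromosome 9, minus strand, chr9:45009612-45009861: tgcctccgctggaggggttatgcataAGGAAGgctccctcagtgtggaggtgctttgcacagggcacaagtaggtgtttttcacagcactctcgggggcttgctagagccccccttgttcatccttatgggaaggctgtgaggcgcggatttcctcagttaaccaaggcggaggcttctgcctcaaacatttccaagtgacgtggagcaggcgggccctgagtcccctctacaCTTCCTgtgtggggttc
Nkg7, chr7:43436888-43437137, plus strand: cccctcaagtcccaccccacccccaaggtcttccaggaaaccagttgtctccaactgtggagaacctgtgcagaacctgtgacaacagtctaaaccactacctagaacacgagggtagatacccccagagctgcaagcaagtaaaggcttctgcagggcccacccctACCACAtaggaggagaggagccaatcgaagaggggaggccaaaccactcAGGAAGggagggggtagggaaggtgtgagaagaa
Gzmb, chr14:56262335-56262584, minus strand: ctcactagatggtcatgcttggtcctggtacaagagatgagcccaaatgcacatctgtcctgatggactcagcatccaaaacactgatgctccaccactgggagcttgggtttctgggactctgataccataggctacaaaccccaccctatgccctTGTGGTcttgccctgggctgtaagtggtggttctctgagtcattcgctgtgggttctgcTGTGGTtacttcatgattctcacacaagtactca
Zap70, most upstream of 3 starts, chr1:36761548-36761797, plus strand: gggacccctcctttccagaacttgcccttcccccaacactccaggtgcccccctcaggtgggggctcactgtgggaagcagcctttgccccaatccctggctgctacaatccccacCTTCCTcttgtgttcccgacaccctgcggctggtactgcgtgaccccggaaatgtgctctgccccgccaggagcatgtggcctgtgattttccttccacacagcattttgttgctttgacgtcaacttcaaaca
Zap70, the next start, chr1:36764265-36764514, plus strand: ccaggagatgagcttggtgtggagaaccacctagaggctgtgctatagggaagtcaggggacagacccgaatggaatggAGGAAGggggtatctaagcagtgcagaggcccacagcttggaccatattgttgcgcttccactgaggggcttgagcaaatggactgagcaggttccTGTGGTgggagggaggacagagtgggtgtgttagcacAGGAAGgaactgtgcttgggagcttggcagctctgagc
The RUNX letters were in 12 of the 31 member windows (38.7%) and in 14.0% of all 32851 windows. Some genes had more than 1 window, and windows can overlap. Those of Ncr1 (chr7:4337465-4337714 and chr7:4337474-4337723) overlap almost wholly, and each held 2 RUNX matches. The ETS letters were in 18 of 31 (58.1%) and in 29.5% of all windows. Cd3e held 2 ETS matches, Gzmb 2 RUNX matches and Nkg7 1 of each. Zap70 held 1 ETS match before its first start, 1 RUNX and 2 ETS matches before the next, and 0 of either before the third. These are matches of letters in a window, and no binding was measured.

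The T cell receptor genes were low in most livers and high in DEN WT replicate 5 and tumour replicate 3. Cd3g (ENSMUSG00000002033, chr9:44969572-44980431 in mm10), Cd3d (ENSMUSG00000032094, chr9:44981786-44987339) and Cd3e (ENSMUSG00000032093, chr9:44998740-45009627) lie side by side on chromosome 9, and the starts of Cd3g and Cd3d are 1355 bases apart on opposite strands. In the values that follow, replicates are in the order 1 to 3. Cd3e, the chain most often used to define T cells, was at 1.66, 0.17 and 0.03 TPM in untreated livers labelled WT and 0.11, 0.06 and 0.03 in untreated LKO livers. It ranged from 0.12 to 4.53 TPM (median 0.54) in the DEN livers labelled WT, and was at 0.09, 1.14 and 0.27 in DEN LKO nontumour tissue and 0.03, 0.29 and 3.60 in the tumours. Its levels overlapped between the groups in each of the 6 comparisons made below, and the libraries above 2 TPM were DEN WT replicate 5 and tumour replicate 3.

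Cd3g had 1.63, 1.18 and 0.80 TPM in untreated livers labelled WT and 0.35, 0.14 and 0.81 in untreated LKO livers. With DEN it ran from 0.61 to 8.43 TPM (median 1.94) in the DEN livers labelled WT, with 0.71, 4.38 and 2.97 in DEN LKO nontumour tissue and 0.64, 1.85 and 9.56 in the tumours. Every group overlapped with every DEN group, and nontumour LKO replicate 2 was the third highest library. Cd3d, the delta chain, was at 0.68, 0.51 and 0.11 TPM in untreated livers labelled WT and 0.44, 1.42 and 0 in untreated LKO livers. It ranged from 0.42 to 4.30 TPM (median 1.00) in the DEN livers labelled WT, and was at 0.13, 0.80 and 3.24 in DEN LKO nontumour tissue and 1.66, 0.64 and 2.13 in the tumours. Its order differed from that of its neighbours: nontumour LKO replicate 3 stood above tumour replicate 3. Cd247, the zeta chain, had 0.57, 0.17 and 0.47 TPM in untreated livers labelled WT and 0.26, 0 and 0.08 in untreated LKO livers. After DEN it lay from 0.45 to 4.24 TPM (median 0.56) in the DEN livers labelled WT, with 0.57, 1.01 and 0.71 in DEN LKO nontumour tissue and 0.14, 0.61 and 5.29 in the tumours. The 3 nontumour LKO values were all above the 3 untreated LKO values. Exons of Cd247 and Cd3e overlap exons of other annotated genes, and those reads cannot be assigned here because the counting's use of strand is not stated.

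Trac (ENSMUSG00000076928, chr14:54220521-54224206), the constant region of the α chain, was at 2.54, 0.76 and 0.38 TPM in untreated livers labelled WT and 0.48, 0 and 0.60 in untreated LKO livers. In treated livers it was from 0.20 to 10.1 TPM (median 1.67) in the DEN livers labelled WT, and 0.80, 3.20 and 0.92 in DEN LKO nontumour tissue and 0.76, 1.40 and 10.8 in the tumours. Trbc2 (ENSMUSG00000076498, chr6:41546730-41548352), a β chain constant region, was the most abundant receptor gene at 2.76, 2.08 and 1.02 TPM in untreated livers labelled WT and 1.59, 0.62 and 1.27 in untreated LKO livers. It ranged from 1.68 to 19.4 TPM (median 3.94) in the DEN livers labelled WT, with 2.19, 11.9 and 9.07 in DEN LKO nontumour tissue and 3.39, 7.47 and 21.1 in the tumours. All 3 nontumour LKO values exceeded all 3 untreated LKO values. Trbc1, the other β constant region, was at 2.28, 1.57 and 0.45 TPM in untreated livers labelled WT and 0.16, 0.14 and 0.58 in untreated LKO livers. It ran from 1.25 to 6.81 TPM (median 1.86) in the DEN livers labelled WT, with 1.09, 3.98 and 2.93 in DEN LKO nontumour tissue and 0.75, 2.42 and 4.64 in the tumours. The 2 β regions are near-identical copies, so the division of reads between them is uncertain. The gene annotated for the δ chain, Trdc, stayed at or under 0.26 TPM in all 18 libraries.

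**Figure D1:**
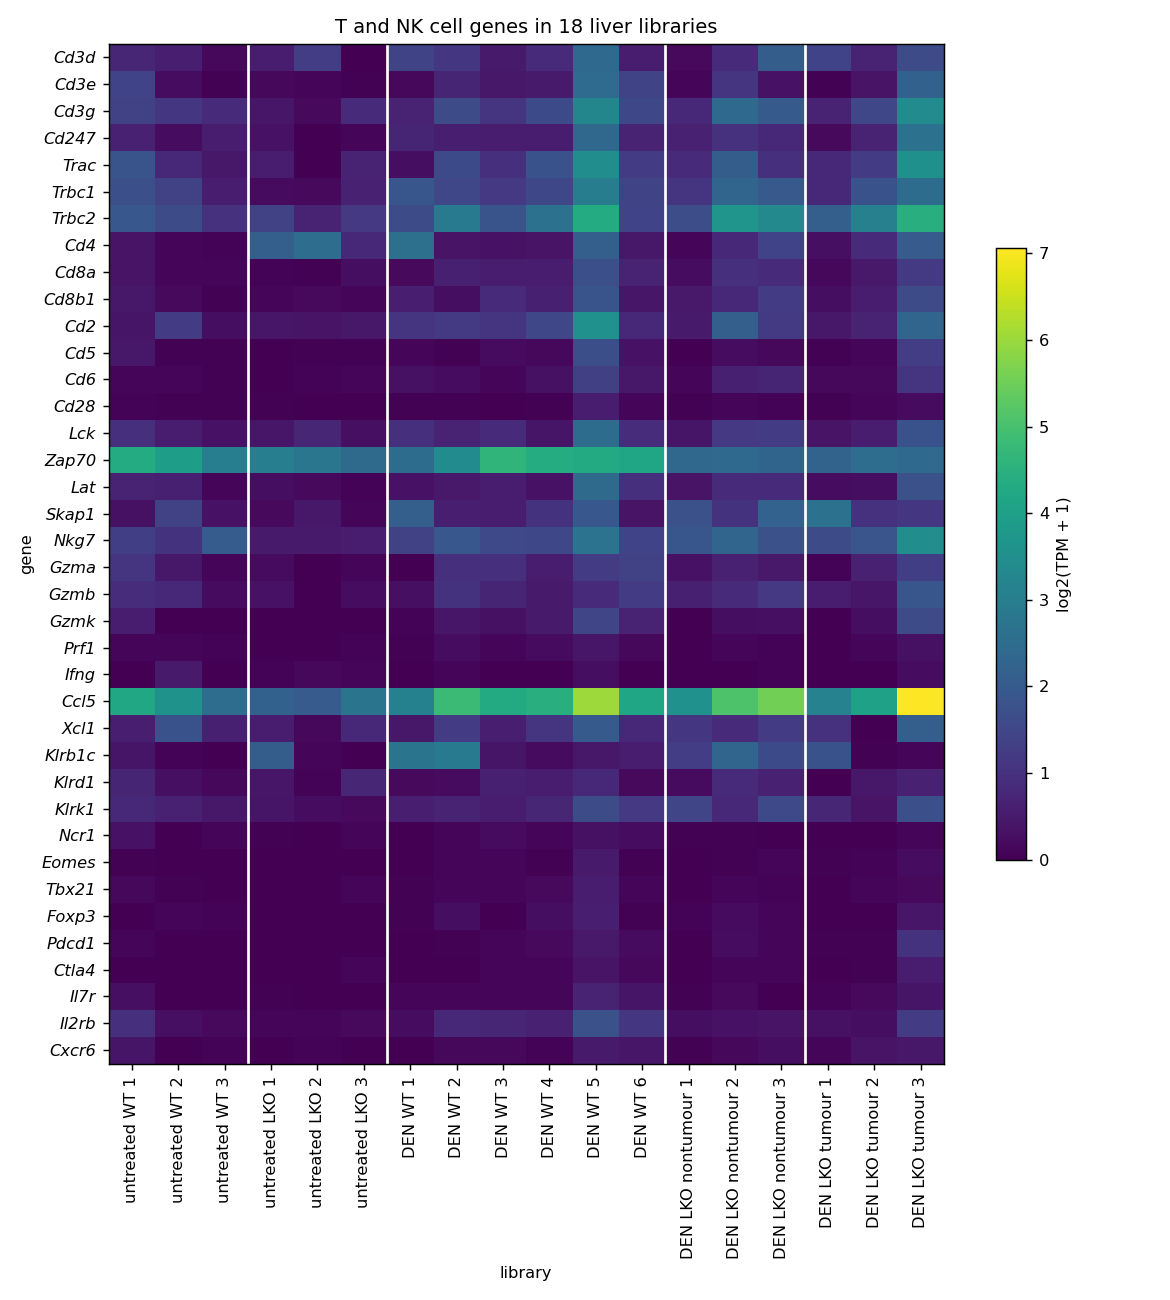
Heatmap of the 38 T and NK cell genes (rows) in 18 liver libraries (columns), coloured by log2(TPM + 1), with white lines between the 5 groups. DEN WT replicate 5 and DEN LKO tumour replicate 3 are the brightest columns for 26 genes, while Zap70 (3.72 to 23.67 TPM) and Ccl5 (3.05 to 132.75 TPM) are visible in every library.

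Coreceptor and adhesion genes were mostly near or under 1 TPM. Cd2, an adhesion receptor of T and NK cells, was at 0.32, 1.39 and 0.21 TPM in untreated livers labelled WT and 0.34, 0.29 and 0.36 in untreated LKO livers. It ranged from 0.71 to 10.9 TPM (median 1.21) in the DEN livers labelled WT, with 0.42, 3.38 and 1.30 in DEN LKO nontumour tissue and 0.37, 0.60 and 3.90 in the tumours. DEN WT replicate 5 stood far above every other library. Cd8b1, the β chain of the cytotoxic coreceptor, had 0.36, 0.14 and 0.03 TPM in untreated livers labelled WT and 0.08, 0.13 and 0.10 in untreated LKO livers. With DEN it ran from 0.20 to 2.54 TPM (median 0.54) in the DEN livers labelled WT, with 0.41, 0.72 and 1.32 in DEN LKO nontumour tissue and 0.20, 0.44 and 2.08 in the tumours. No untreated library reached the lowest nontumour LKO value. Cd8a, Cd5, Cd6 and Cd28 did not reach the level for testing. Cd8a ranged from 0.03 to 2.30 TPM, Cd5 from 0 to 2.23, Cd6 from 0 to 1.54 and Cd28 from 0 to 0.45 TPM, each with its highest value in DEN WT replicate 5.

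Cd4 (ENSMUSG00000023274, chr6:124864692-124888221), the helper coreceptor, did not follow this order. It was at 0.29, 0.10 and 0.04 TPM in untreated livers labelled WT and 3.42, 4.77 and 0.73 in untreated LKO livers. In DEN livers it ranged from 0.27 to 5.12 TPM (median 0.34) in the DEN livers labelled WT, with 0.09, 0.74 and 1.68 in DEN LKO nontumour tissue and 0.23, 0.83 and 3.07 in the tumours. The highest levels were in DEN WT replicate 1 and untreated LKO replicates 2 and 1, where Cd3e was at 0.12, 0.06 and 0.11 TPM. The 3 untreated LKO values lay above the 3 untreated WT values, the only tested member for which they did.

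Among signalling genes, Lck, the kinase that acts at the receptor, was at 0.95, 0.45 and 0.26 TPM in untreated livers labelled WT and 0.35, 0.69 and 0.22 in untreated LKO livers. It ranged from 0.32 to 4.66 TPM (median 0.85) in the DEN livers labelled WT, with 0.31, 1.24 and 1.36 in DEN LKO nontumour tissue and 0.30, 0.45 and 2.41 in the tumours. Its highest libraries were again DEN WT replicate 5 and tumour replicate 3. Lat, the adaptor that Zap70 phosphorylates, was not tested. It ranged from 0.04 TPM in untreated LKO replicate 3 to 4.39 in DEN WT replicate 5 and was at 2.34 in tumour replicate 3. Skap1, an adaptor of integrin activation, differed: it was at 0.24, 1.57 and 0.28 TPM in untreated livers labelled WT and 0.13, 0.37 and 0.06 in untreated LKO livers. It ran from 0.29 to 3.38 TPM (median 0.78) in the DEN livers labelled WT, with 2.36, 1.04 and 3.66 in DEN LKO nontumour tissue and 5.23, 1.02 and 1.18 in the tumours. Its highest library was tumour replicate 1, where the Cd3e level was 0.03 TPM. A gene on the opposite strand overlaps Skap1 exons.

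Zap70 (ENSMUSG00000026117, chr1:36761798-36782818) was high in most libraries labelled WT and low in LKO libraries. Unlike most receptor complex genes, it was not highest in DEN WT replicate 5 and tumour replicate 3. It was at 19.2, 14.1 and 7.14 TPM in untreated livers labelled WT and 7.17, 5.90 and 4.42 in untreated LKO livers. The 6 DEN livers labelled WT were at 4.61, 9.65, 23.67, 19.86, 18.86 and 17.01 TPM for replicates 1 to 6, with 4.09, 4.28 and 3.82 in DEN LKO nontumour tissue and 3.72, 4.80 and 4.38 in the tumours. Zap70 exceeded Cd3e in all 18 libraries, and it was the most abundant member in 6 of them. All 6 DEN LKO libraries were at or under 4.80 TPM, and 5 of 6 DEN WT libraries were above that level. The exception, DEN WT replicate 1, was one of the libraries labelled WT with low Ftcd; the others with low Ftcd had 7.14 and 9.65 TPM, and the 6 with high Ftcd had 14.14 to 23.67 TPM.

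Effector genes included the most abundant member in the remaining 12 libraries, Ccl5 (ENSMUSG00000035042, chr11:83525778-83530518), a chemokine that attracts T cells and monocytes. Ccl5 was at 17.8, 11.4 and 4.78 TPM in untreated livers labelled WT and 3.55, 3.05 and 5.56 in untreated LKO livers. It ranged from 7.65 to 63.9 TPM (median 19.8) in the DEN livers labelled WT, with 11.0, 33.3 and 46.2 in DEN LKO nontumour tissue and 7.81, 15.4 and 133 in the tumours. Its share of the summed TPM of the members was 14.8% to 55.2%. The untreated LKO libraries all lay below every nontumour LKO library, and tumour replicate 3 was the highest library.

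Nkg7 (ENSMUSG00000004612, chr7:43437073-43438249), a granule membrane protein of cytotoxic cells, was at 1.47, 1.06 and 3.12 TPM in untreated livers labelled WT and 0.43, 0.43 and 0.45 in untreated LKO livers. It ranged from 1.64 to 5.41 TPM (median 1.92) in the DEN livers labelled WT, with 2.73, 3.93 and 2.34 in DEN LKO nontumour tissue and 2.10, 2.62 and 10.0 in the tumours. The 3 untreated LKO libraries were the lowest of all 18 libraries and differed little from each other. Gzmb, a granzyme of activated killer cells, had 0.86, 0.72 and 0.16 TPM in untreated livers labelled WT and 0.26, 0 and 0.17 in untreated LKO livers. It ran from 0.22 to 1.40 TPM (median 0.72) in the DEN livers labelled WT, with 0.53, 0.79 and 1.27 in DEN LKO nontumour tissue and 0.48, 0.35 and 2.71 in the tumours. Tumour replicate 3 held its highest value, while DEN WT replicate 5 was inside the range of its group. Gzma, another granzyme, had 1.08, 0.37 and 0.10 TPM in untreated livers labelled WT and 0.16, 0 and 0.06 in untreated LKO livers. It ran from 0 to 1.62 TPM (median 0.97) in the DEN livers labelled WT, with 0.27, 0.57 and 0.39 in DEN LKO nontumour tissue and 0.05, 0.58 and 1.48 in the tumours. DEN WT replicate 6 held its highest value, followed by tumour replicate 3. Xcl1, a chemokine for cross-presenting dendritic cells, was at 0.52, 2.41 and 0.53 TPM in untreated livers labelled WT and 0.47, 0.12 and 0.72 in untreated LKO livers. It ranged from 0.38 to 2.97 TPM (median 0.95) in the DEN livers labelled WT, with 1.17, 0.81 and 1.32 in DEN LKO nontumour tissue and 1.00, 0 and 3.41 in the tumours. Gzmk (0 to 2.12 TPM), Prf1 (0 to 0.35 TPM) and Ifng (0 to 0.43 TPM) were not tested, and Ifng was listed at 0 in 10 of 18 libraries.

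The NK receptors did not move as a block. Klrk1, the activating receptor NKG2D, was at 0.71, 0.57 and 0.37 TPM in untreated livers labelled WT and 0.32, 0.18 and 0.14 in untreated LKO livers. It ranged from 0.48 to 2.07 TPM (median 0.64) in the DEN livers labelled WT, with 1.80, 0.75 and 1.93 in DEN LKO nontumour tissue and 0.69, 0.30 and 2.30 in the tumours. Every nontumour LKO value exceeded every untreated LKO value. Klrb1c, which encodes NK1.1, the usual NK marker of C57BL/6 mice, had 0.32, 0.04 and 0 TPM in untreated livers labelled WT and 3.20, 0.06 and 0 in untreated LKO livers. It ran from 0.16 to 6.32 TPM (median 0.42) in the DEN livers labelled WT, with 1.43, 3.94 and 1.98 in DEN LKO nontumour tissue and 2.43, 0.03 and 0.10 in the tumours. Klrb1c was highest in DEN WT replicates 2 and 1. In the libraries richest in T cell receptor transcripts it was at 0.36 TPM (DEN WT replicate 5), near its median of 0.34, and 0.10 TPM (tumour replicate 3). It was at 3.94 TPM in LKO nontumour replicate 2, which had the next highest summed receptor level (26.4 TPM). Another annotated gene overlaps Klrb1c exons on the same strand. Klrd1 and Ncr1 were not tested and stayed at or under 0.84 and 0.28 TPM. Ncr1, which encodes NKp46 and defines NK cells and related innate lymphocytes, was listed at 0 in 6 libraries.

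Among receptors for cytokines, Il2rb, shared by the IL-2 and IL-15 receptors, was at 0.96, 0.23 and 0.14 TPM in untreated livers labelled WT and 0.08, 0.06 and 0.14 in untreated LKO livers. It ranged from 0.17 to 2.40 TPM (median 0.71) in the DEN livers labelled WT, with 0.19, 0.28 and 0.29 in DEN LKO nontumour tissue and 0.25, 0.20 and 1.36 in the tumours. Il7r, the survival receptor of resting T cells, and Cxcr6, a homing receptor of liver T and NKT cells, stayed at or under 0.61 and 0.42 TPM. The transcription factor genes Eomes, Tbx21 and Foxp3 did not exceed 0.43, 0.46 and 0.51 TPM, each in DEN WT replicate 5, and exons of Eomes, Foxp3 and Xcl1 overlap those of other genes. The checkpoint receptor genes Pdcd1 and Ctla4 were highest in tumour replicate 3, at 1.05 and 0.46 TPM, and Ctla4 was listed at 0 in 9 libraries.

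**Figure D2:**
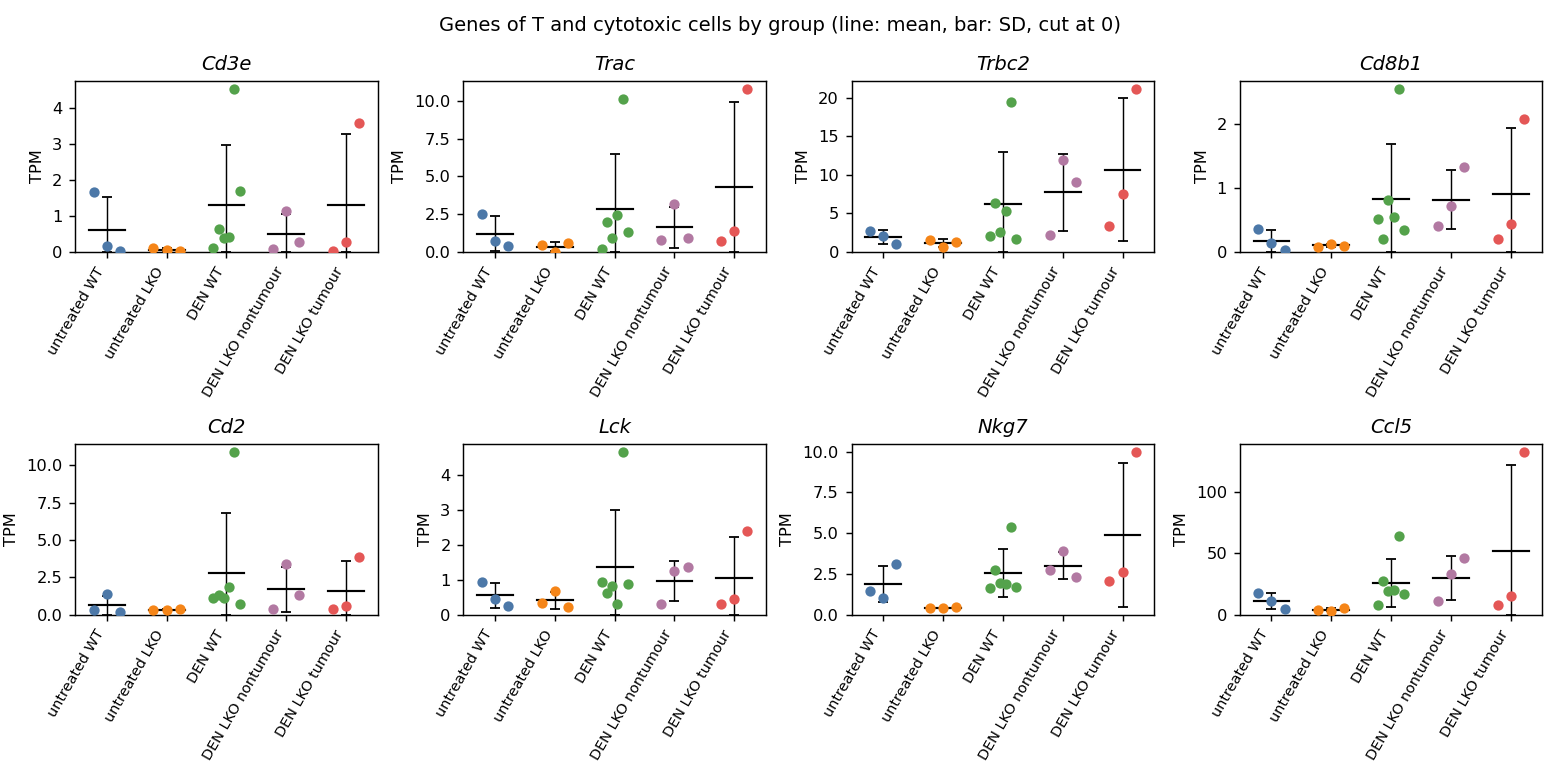
TPM of 8 T and cytotoxic cell genes by group; points are libraries, black lines are group means and bars are 1 SD, cut at 0. The untreated LKO points are low for every gene shown, and a high point in the DEN WT group (replicate 5) and in the tumour group (replicate 3) stands apart, at 4.53 and 3.60 TPM for Cd3e.

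DEN WT replicate 5 and tumour replicate 3 were therefore compared with the rest before any group difference is given. They were the 2 highest libraries for 26 of 38 members (68.4%) and 14 of 21 tested members (66.7%), against 626 of 13872 tested genes (4.51%). The 2 libraries were picked because members were high in them, so this excess was partly fixed by that choice. DEN WT replicate 5 was the highest for 18 members and tumour replicate 3 for 12. The 7 receptor complex genes summed to 57.8 and 57.1 TPM in them and to between 2.38 and 26.4 TPM in the other 16 libraries.

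The company of the T cell genes differed between these libraries. The 10 B cell markers, all detected in DEN WT replicate 5, summed to 76.1 TPM there, against 7.0 TPM in tumour replicate 3, where Blk was at 0, and 0.88 to 14.1 TPM in the other 16. Cd79a, a component of the B cell receptor, was at 27.4 and 0.50 TPM. Plasma cell genes summed to 2261 and 251 TPM. The 13 macrophage markers, detected in every library, summed to 1296 TPM in tumour replicate 3, to 607 TPM in DEN WT replicate 5 and to 66.1 to 791 TPM elsewhere. Of these markers, 11 reached 1 TPM in tumour replicate 3 and all 13 did in DEN WT replicate 5, so the sums do not describe every marker. Among the members themselves, the level in tumour replicate 3 divided by that in DEN WT replicate 5 was above 1 for 13 of 38 and below 1 for 25, with a median of 0.744. It was above 1 for 6 of 8 effector genes, from 3.43 for Gzmb, 2.08 for Ccl5 and 1.85 for Nkg7 to 0.857 for Ifng and 0.714 for Prf1, and for both checkpoint genes (2.56 for Pdcd1 and 1.59 for Ctla4). Of the 7 receptor complex genes it was above 1 for 4, between 0.495 for Cd3d and 1.25 for Cd247. It was below 1 for all 7 coreceptor and costimulation genes, from 0.333 for Cd28 to 0.9 for Cd4, and for all 4 signalling genes, from 0.232 for Zap70 to 0.533 for Lat. The 4 NK receptor genes lay between 0.278 for Klrb1c and 1.11 for Klrk1. The 3 transcription factor genes, with Tbx21 lowest at 0.283, and the 3 cytokine or chemokine receptor genes were all below 1. These are ratios of 2 libraries without a test, and they depend on scaling. The median-ratio size factors were 1.74 for tumour replicate 3 and 1.39 for DEN WT replicate 5. That scaling lowers every ratio, so those only a little above 1 do not separate the gene roles.

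**Figure D3:**
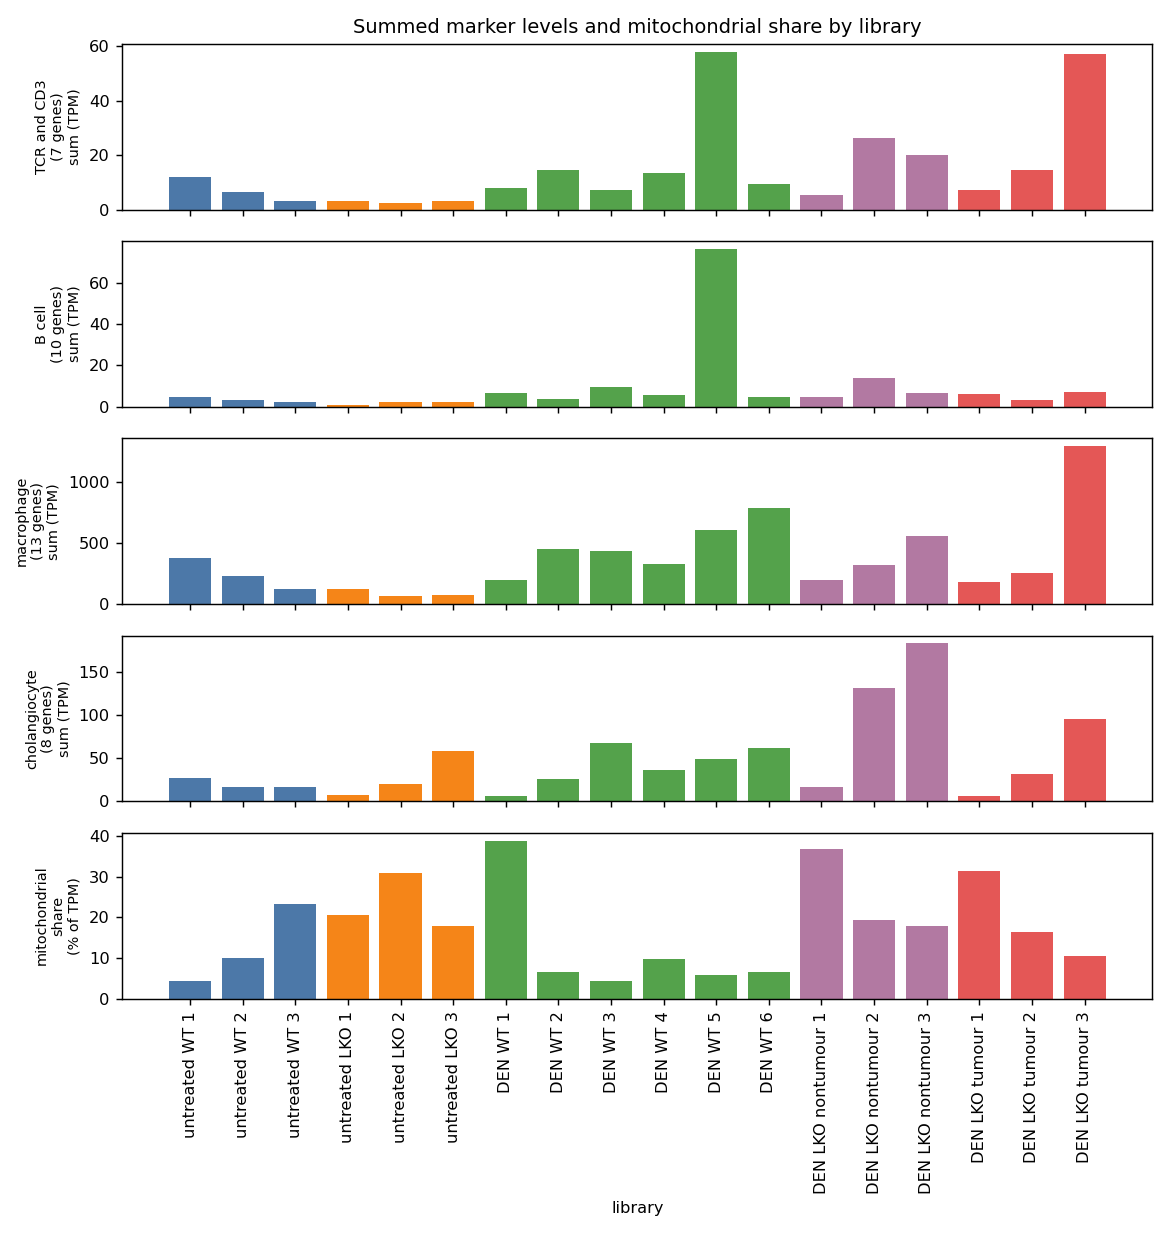
Bars give, per library, the summed TPM of receptor complex, B cell, macrophage and cholangiocyte marker genes and the share of TPM from mitochondrially encoded transcripts; colours mark the 5 groups. Receptor complex genes peak at 57.8 TPM in DEN WT replicate 5 and 57.1 TPM in tumour replicate 3, but B cell markers peak in the former (76.1 TPM) and macrophage markers in the latter (1296 TPM).

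The group comparisons asked how the loss of Ftcd, DEN and tumour tissue were associated with T and NK cell transcripts. No member passed limma's test at an adjusted p under 0.05 in any of 6 comparisons or in the interaction of genotype with DEN. A missed threshold does not show that levels were equal, and fold changes below are on log2(TPM + 1), which understates changes of low genes. In untreated liver, 0 of 21 tested members were called where 0.433% of all tested genes were. At an unadjusted p under 0.05 there was 1 member, beside 4.15% of all tested genes. The median member difference, LKO minus WT, was -0.44, with 18 of 21 negative and a median over all tested genes of -0.33. Nkg7 and Klrk1 were lower in every LKO library than in any WT library, as was Cd28 among untested members; 8.97% of all tested genes showed that order. Nkg7 averaged 0.437 ± 0.0115 TPM (SD, n = 3) against 1.88 ± 1.09 (n = 3), a difference of -0.94 ± 0.45 (SE) with limma's adjusted p = 0.831. Cd4 was the reverse, at 2.97 ± 2.06 against 0.143 ± 0.131 TPM (SD, n = 3 each), a difference of 1.63 ± 0.64 with limma's adjusted p = 0.831; 2.45% of tested genes were higher without overlap.

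Untreated LKO liver was the low point of the set. Of the 38 members, 31 (81.6%) had their lowest value, ties included, in an untreated LKO library, against 31.7% of all tested genes. These shares are not directly comparable. The 38 include 17 members under the testing level, and genes listed at 0 in several libraries tie more easily. The untreated LKO mean was the lowest of the 5 groups for 17 of 21 tested members, a count not made for all tested genes. Over all tested genes, the median difference from untreated WT was also negative in untreated LKO liver (-0.33). Pan-leukocyte markers summed to 24.39 to 32.07 TPM there and to 28.75 to 96.38 TPM in untreated WT. The macrophage markers summed to 66.07 to 124.69 against 126.74 to 377.67 TPM, and all 13 had negative differences. The mitochondrial share was 17.9% to 30.9% in untreated LKO and 4.24% to 23.2% in untreated WT, and a fit that included this share put the median member difference at 0.01.

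DEN was compared with no treatment within each labelled genotype. In livers labelled WT, all 21 tested members had higher means after DEN, with a median difference of 0.44 against 0.01 for all tested genes. None was called, as for all genes (0.0%), and 0 had an unadjusted p under 0.05, beside 0.685% of all genes. None separated the groups, as 0.49% of all tested genes did upwards and 0.18% downwards. Without DEN WT replicate 5 the median was 0.22. Pan-leukocyte (12 of 12) and macrophage (13 of 13) markers had positive differences too, with medians of 0.74 and 0.75.

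In LKO nontumour liver, 19 of 21 tested members had higher means than untreated LKO liver, with a median of 0.69 against 0.12 for all tested genes. None was called, beside 0.0649% of all genes, and 6 had an unadjusted p under 0.05, beside 5.96% of all genes. All 3 nontumour values exceeded all 3 untreated values for 17 of 38 members, 14 of them tested and 3 (Cd28, Lat and Foxp3) not, while 9.86% of all tested genes showed that order. A gene passes the expression filter more easily when 1 group is high, so the tested members are not a fair sample of the 38. Ccl5 averaged 30.2 ± 17.8 against 4.05 ± 1.33 TPM (SD, n = 3 each), a difference of 2.44 ± 0.84 (SE) with limma's adjusted p = 0.56. For Nkg7 the means were 3.0 ± 0.829 and 0.437 ± 0.0115 TPM, a difference of 1.46 ± 0.45 with limma's adjusted p = 0.448. Trbc2 differed by 1.82 ± 0.71 (adjusted p = 0.688) and Trbc1 by 1.43 ± 0.50 (adjusted p = 0.576). Klrk1 differed by 1.01 ± 0.36 (adjusted p = 0.611) and Skap1 by 1.43 ± 0.53 (adjusted p = 0.635). Zap70 was the member lower without overlap, at 4.06 ± 0.231 against 5.83 ± 1.38 TPM, an order that 2.46% of tested genes showed.

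Other leukocyte markers stood in the same order in that comparison. All 13 macrophage markers had positive differences, 12 without overlap, with a median of 1.77. All 12 pan-leukocyte markers were positive, 8 without overlap, with a median of 1.33. All 6 tested B cell markers were positive, 3 without overlap. None of these markers was called, and their part in the members' differences was not tested.

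**Figure D4:**
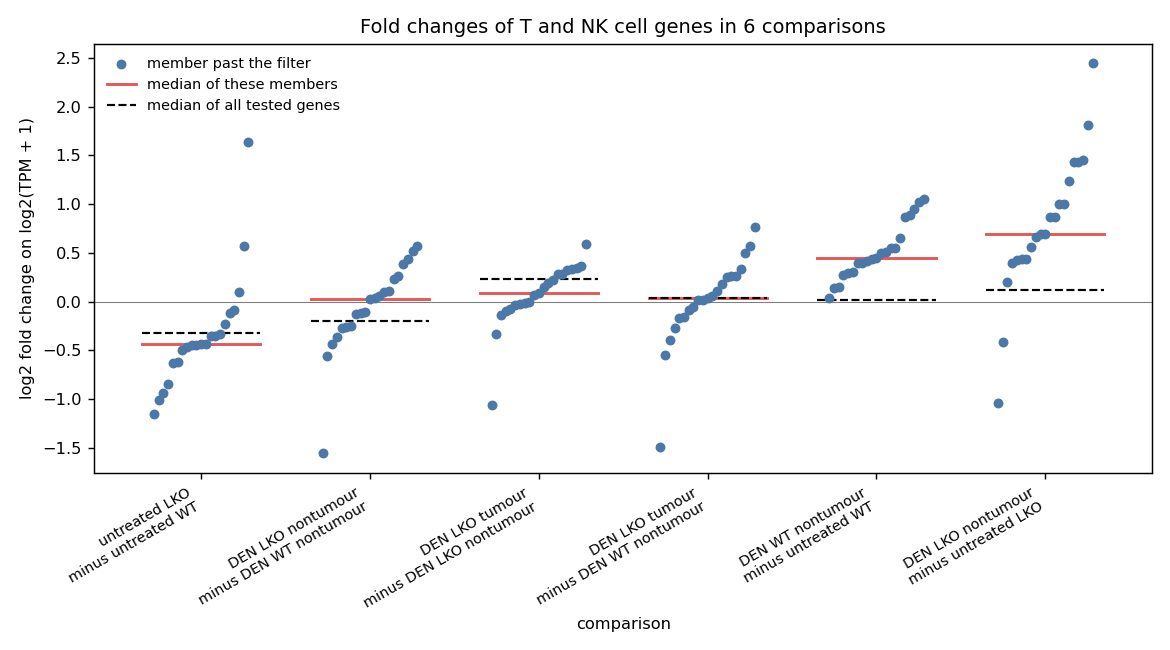
Differences of the 21 tested members (points) on the log2(TPM + 1) scale in 6 comparisons, with the members' median (red) and the median of all tested genes (dashed). The members' median lies furthest from that of all genes for DEN LKO nontumour minus untreated LKO (0.69 against 0.12) and DEN WT minus untreated WT (0.44 against 0.01).

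Among DEN-treated livers the members showed no common direction. LKO nontumour minus livers labelled WT gave a median of 0.03, with 11 of 21 positive and -0.19 for all tested genes. There 0 members were called, beside 0.0577% of all genes, and 1 had an unadjusted p under 0.05, beside 13.1%; none was higher without overlap (2.33% of all genes were). Tumour minus LKO nontumour gave 0.08, with 12 of 21 positive and 0.23 for all genes. Here 0 were called, beside 0.0% of all genes, and 0 had an unadjusted p under 0.05, beside 2.74%; none was higher (1.81% of all genes) or lower (2.02%) without overlap. Tumour minus livers labelled WT gave 0.03, with 13 of 21 positive and 0.04 for all genes. Of these, 0 were called, beside 0.497% of all genes, and 1 had an unadjusted p under 0.05, beside 10.5%; none was higher (2.05% of all genes) or lower (1.14%) without overlap. These comparisons share libraries. Without tumour replicate 3 the medians of the tumour comparisons were -0.37 and -0.48. Median-ratio scaling made the median of tumour minus LKO nontumour -0.11, and quantile normalization made all 3 medians negative (-0.06, -0.07 and -0.14). In the untreated comparison, median-ratio scaling moved the median of all genes from -0.33 to 0.01 and that of the members from -0.44 to -0.32. Ccl5 averaged 52.0 TPM in tumours, 30.2 in LKO nontumour liver and 26.0 in DEN WT liver, and tumour minus nontumour was 0.00 ± 0.84 on the log2 scale.

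Zap70 was the exception among DEN livers. It averaged 4.06 ± 0.231 TPM (SD, n = 3) in LKO nontumour tissue and 4.30 ± 0.544 (n = 3) in tumours, against 15.6 ± 7.10 (n = 6) in livers labelled WT. The nontumour group lay wholly below the WT group, as 1.73% of tested genes did. The difference was -1.56 ± 0.42 (SE) for nontumour tissue, with limma's adjusted p = 0.219, and -1.50 ± 0.42 for tumours, with adjusted p = 0.134. Without the libraries labelled WT that had low Ftcd, the differences were -2.03 ± 0.29 (adjusted p = 0.00571) and -1.97 ± 0.29 (adjusted p = 0.00391), both past the threshold. Without DEN WT replicate 1 alone they were also past it, at adjusted p = 0.0251 and 0.0145. Over all settings the adjusted p ranged from 0.00571 to 0.923 and from 0.00391 to 0.535. When the mitochondrial share was added to the fit, the nontumour difference was -0.88 (adjusted p = 0.573). That share was 38.8% in DEN WT replicate 1, 4.39% to 9.8% in the other DEN WT libraries, and 10.5% to 36.9% in DEN LKO libraries.

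**Figure D5:**
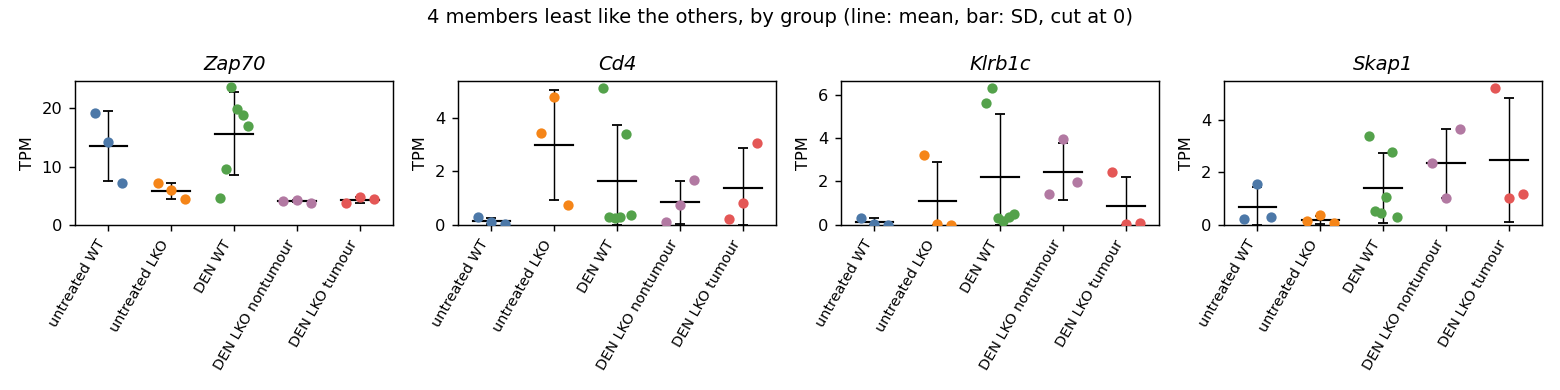
TPM of Zap70, Cd4, Klrb1c and Skap1 by group; points are libraries, black lines are means and bars are 1 SD, cut at 0. DEN LKO libraries hold 3.72 to 4.80 TPM of Zap70 while 5 of 6 DEN WT libraries hold 9.65 to 23.67 TPM, and Klrb1c is at 0.36 and 0.10 TPM in DEN WT replicate 5 and tumour replicate 3.

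The interaction asked whether the genotype difference was the same with and without DEN. No tested member was called (0.0% of all genes; 1 member at an unadjusted p under 0.05, beside 2.39%). The member with that p was Cd4, whose genotype difference was lower with DEN by 1.91 ± 0.84 on the log2 scale, with limma's adjusted p = 1.0. For Zap70 the interaction was -0.55 ± 0.64 with limma's adjusted p = 1.0.

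Levels of most tested members were related to that of Cd3e across the 18 libraries, as were those of many other genes. Of 25 relations computed with Cd3e on log2(TPM + 1), 21 had an adjusted permutation p under 0.05 by Pearson's r and 18 by Spearman's rho, and these included 16 of 20 other tested members by r and 13 by rho. The smallest r among the 16 was 0.491, a size (of either sign) that 51.3% of the 13851 tested non-member genes also reached. The median r with Cd3e was 0.732 over the 20 members and 0.476 over the non-members. Without the 2 libraries farthest from the Cd3e median, DEN WT replicate 5 and tumour replicate 3, these medians were 0.426 and 0.454, so the members' median was not above that of other genes there. Il2rb gave r = 0.925 (permutation p = 2e-05, adjusted 0.000167) and rho = 0.878 (p = 1e-05, the smallest that 100000 permutations can give), and r = 0.835 without those 2 libraries. Gzma gave r = 0.854 (permutation p = 1e-05, adjusted 0.000125) and rho = 0.913 (p = 1e-05), with r = 0.862 without those libraries. Trac gave r = 0.914 (permutation p = 1e-05) and rho = 0.875 (p = 1e-05), with r = 0.751 without them. For 7 of the 16 members, r fell under 0.35 without those libraries. One was Cd3d: r was 0.491 (permutation p = 0.0382) and rho 0.413 (p = 0.0908) for Cd3d, and r was 0.00269 without them. For Trbc2, r was 0.698 (permutation p = 0.00176) and rho 0.673 (p = 0.00295), and r was 0.341 without them. For Nkg7, r was 0.666 (permutation p = 0.00269) and rho 0.423 (p = 0.0821), and r was 0.278 without them. Xcl1 (0.0348), Cd8b1 (0.283), Klrk1 (0.311) and Cd2 (0.342) were the others, with r without those libraries in brackets. By rank over all 18 libraries, rho was 0.683 for Cd8b1 (permutation p = 0.00245) and 0.63 for Klrk1 (p = 0.00627). It was 0.688 for Cd2 (permutation p = 0.00213) and 0.392 for Xcl1 (p = 0.109). Trbc2, Cd8b1, Klrk1 and Cd2 thus had an adjusted permutation p under 0.05 for rho. Cd3d, Nkg7 and Xcl1 did not (adjusted permutation p = 0.108, 0.103 and 0.124). Whether a relation rested on the 2 libraries was not tested.

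The members that passed no such threshold were Zap70 (r = 0.367, permutation p = 0.137, rho = 0.435, p = 0.0733), Cd4 (r = 0.215, p = 0.4, rho = 0.217, p = 0.386), Skap1 (r = 0.0104, p = 0.968, rho = 0.0796, p = 0.754) and Klrb1c (r = -0.15, p = 0.561, rho = 0.204, p = 0.414). Without DEN WT replicate 5 and tumour replicate 3, r was 0.511 for Zap70, -0.27 for Cd4, -0.307 for Skap1 and 0.062 for Klrb1c. Genes of other cells were also related to Cd3e. For the macrophage gene C1qa, r was 0.747 (permutation p = 0.00017) and rho 0.892 (p = 1e-05), with r = 0.658 without the 2 libraries. For the B cell gene Cd79a, r was 0.644 (permutation p = 0.00955) and rho 0.676 (p = 0.00281), with r = 0.594. For the hepatocyte gene Alb, r was 0.565 (permutation p = 0.0142) and rho 0.731 (p = 0.00076), with r = 0.676. The mitochondrial share moved the other way, with r = -0.621 (permutation p = 0.0053), rho = -0.741 (p = 0.00065) and r = -0.683 without the 2 libraries. No batch is labelled; within the 6 DEN WT libraries r with Cd3e was 0.974 for Il2rb, 0.735 for C1qa and -0.481 for the mitochondrial share.

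The tested non-member genes most like the mean of the standardized tested members over the 18 libraries were Il16 (r = 0.949), Lrmp, Plcg2, Gimap3, Apobec3, Arhgap30, Myo1g, Lsp1, Slfn2 and Fmnl1 (r = 0.920). The median r over all tested non-members was 0.324. The members themselves ranged from 0.939 for Cd3g and 0.934 for Ccl5 to 0.378 for Skap1, 0.262 for Cd4, 0.185 for Zap70 and 0.0537 for Klrb1c. Each member's own level is part of that mean, so its r is not directly comparable with the r of non-members. These values include the 2 high libraries and are descriptions without a test.

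Other genes of T cell signalling were read from a list of 20, of which 12 were tested and none was called in any comparison. In LKO nontumour minus untreated LKO, 11 of the 12 were positive with a median of 0.75. The list's most abundant genes had high values in other libraries than the receptor complex: Ptpn22, a phosphatase that restrains receptor signalling, was at 10.96 to 147.87 TPM with its highest value in tumour replicate 1, and the adaptor gene Fyb was at 1.33 TPM in untreated WT replicate 1 and at 2.83 TPM in DEN WT replicate 5, but at 78.4 TPM in nontumour LKO replicate 3. Tox, Havcr2 and Lag3 came from a separate list of 14 costimulation and checkpoint genes, of which 5 were tested. The transcription factor gene Tox was at 37.95 TPM in tumour replicate 1 and 1.99 in tumour replicate 3. The checkpoint gene Havcr2 was at 34.45 TPM in tumour replicate 3 but at 3.90 TPM in DEN WT replicate 5. Lag3, an inhibitory receptor gene, was at 10.42 TPM in tumour replicate 3 and at 0.44 to 2.86 TPM elsewhere.

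Further lists gave the surroundings of the members. Of 22 further cytotoxic and NK genes, 6 were tested and none was called in any comparison. The signalling adaptors Tyrobp and Fcer1g, shared with myeloid cells, reached 215.94 and 217.89 TPM in tumour replicate 3. The common cytokine receptor chain gene Il2rg was at 11.7 TPM in DEN WT replicate 5 and 6.61 in tumour replicate 3, and at 0 to 2.84 TPM elsewhere. The chemokine gene Ccl4 was at 4.68 and 6.88 TPM in tumour replicates 2 and 3 and at or under 2.22 TPM in the other 16 libraries, while Ltb, a cytokine of lymphoid tissue, was at 15.6 and 12.9 TPM in those tumours and 15.3 TPM in DEN WT replicate 5. Of 15 genes known to be induced by interferon-γ, 11 were tested and none was called. Their median was -1.03 in untreated LKO minus WT, with 10 of 11 negative, and 0.70 in LKO nontumour minus untreated LKO, with 11 of 11 positive. Igtp, an interferon-induced GTPase gene, was at 56.4, 30.4 and 24.7 TPM in untreated WT and at 4.69, 3.24 and 12.3 TPM in untreated LKO livers.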

How the data were processed

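RNA-seq libraries were made from total RNA of 18 mouse liver samples with a TruSeq kit, per the labels' protocols. The authors deposited TPM per gene, named fastp, HISAT, RSEM and mm10 in the submitters' processing notes, and gave no versions, settings or strand there. TPM keeps no depth, so no counting error is given and every library had the same total. Groups came from the labels. Genes with at least 1 TPM in at least 3 of 18 libraries (13872 of 58126) were tested as log2(TPM + 1) with limma 3.58.1 in R 4.3.3: 5 group means fitted over all libraries, trended variance prior, two-sided tests, Benjamini-Hochberg adjustment within each comparison, threshold 0.05. No library pair was identical. Coordinates are from GENCODE M21 on mm10 and promoters from RefSeq. Members and gene lists were chosen with earlier results of these data known. All members are named, other genes by the 4 highest mean TPM per list or by likeness to the members; marker genes are the lists' own. Of the listed genes, 3 were not matched by symbol. Alternatives were other pseudocounts, filters, scalings, covariates, left-out libraries and a replicate block.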

Additional observations from a re-analysis of the deposited data

Results flagged for a closer look

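In the group of 6 DEN livers labelled WT, replicate 5 stood apart for 22 of 38 members. Its gap to the nearest library, as a share of the group's range, was above the 95% limit of Dixon's test for 6 values, a limit that chance passes in about 1 in 20 groups; the members share this library, so their flags are not independent. Of the 13872 tested genes, 1.97% were highest in replicate 5 and past this limit, beside 12 of the 21 tested members (57.1%). Replicate 5 was picked because members were high in it, and a high replicate 5 helps a gene pass the filter. The contrast was therefore partly fixed in advance. In some library of the group, 20.5% of tested genes were past the limit. The share was 0.657 for Cd3d, 0.639 for Cd3e, 0.809 for Cd3g, 0.945 for Cd247, 0.775 for Trac, and 0.737 for both Trbc1 and Trbc2. It was 0.769 for Cd8a, 0.735 for Cd8b1, 0.888 for Cd2, 0.891 for Cd5, 0.814 for Cd6 and 0.841 for Cd28. It was 0.857 for Lck, 0.833 for Lat, 0.703 for Nkg7, 0.678 for Gzmk, 0.667 for Ifng and 0.65 for Ccl5. It was 0.791 for Eomes, 0.75 for Tbx21 and 0.634 for Pdcd1. The groups of 3, with tumour replicate 3 among them, are too small for this test.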

How the results depend on the processing

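No member was called in any comparison as first fitted, and 138 recomputed counts gave the same result. The 6 exceptions each called 1 member, Zap70. In LKO nontumour minus DEN WT the count was 1 without the libraries labelled WT with low Ftcd, and 0 to 1 when libraries were left out in turn (1 without DEN WT replicate 1). In tumour minus DEN WT it was 1 with median-ratio scaling, 1 with quantile normalization, 1 without the low-Ftcd libraries, and 0 to 1 when libraries were left out (1 without DEN WT replicate 1). The replicate block called 0 members in every comparison. The sources used here do not state whether samples that share a number come from 1 mouse. Correlations of same-numbered deviations ran from -0.63 to 0.61. They were 0.35, 0.30 and -0.03 for tumour and LKO nontumour tissue, where 4 of 6 libraries correlated best with their own number and Y-linked transcripts were present in the same numbers. No comparison had every pair over 0.1, so none was treated as paired. Among the members' medians, 3 moved by more than the spread between replicates (1 SD): with a pseudocount of 0.1 to -1.20 (untreated LKO minus WT) and 2.07 (LKO nontumour minus untreated LKO), and with a term for Y-linked transcripts to -0.72 (LKO nontumour minus DEN WT). Smaller moves changed signs too: the median of LKO nontumour minus DEN WT (0.03) had the other sign in 10 of 21 alternatives, tumour minus LKO nontumour (0.08) in 6 of 18, tumour minus DEN WT (0.03) in 7 of 21 and untreated LKO minus WT (-0.44) in 1 of 18, while the comparisons of DEN with no treatment kept theirs. The SD above is that of log2(TPM + 1), a scale on which low genes differ less than with a pseudocount of 0.1. The cause of these moves was not tested. Leaving out both DEN WT replicate 5 and tumour replicate 3 was chosen after the data were seen and called 0 members. TPM gives no depth, so the precision of the 17 members below the testing level is unknown.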
